A study of Rattus norvegicus with 12 samples.

Results

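The extracellular matrix genes of rat fat described here are the collagens (Col), laminin chains (Lam), matrix metalloproteinases (Mmp, without Mmp12), their tissue inhibitors (Timp), the Adamts proteases, the lysyl oxidases (Lox) and 9 matrix proteins, Lum, Dcn, Bgn, Fmod, Sparc, Fn1, Fbn1, Eln and Postn. Members were taken by gene symbol from the platform annotation, and each gene was represented by its brightest probe set. The set was chosen with earlier results of these data known, so its counts beside all named genes are description only. This gave 96 genes with 136 probe sets, of 14217 named genes and 31099 probe sets on the array. Of the 96 genes, 77 lay above the filter on dim probe sets (the 25th percentile of mean log2 intensity, 6.61) and were tested. The other 19 did not and have levels but no test.

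RNA came from epididymal white adipose tissue, the fat pad beside the epididymis, of Jcl:Wistar background rats killed at 24 weeks of age. The AL group (4 arrays) was wild Wistar rats with free access to food. The CR group (4 arrays) was wild Wistar rats held to 70% of that energy from 6 weeks of age. The Tg group (4 arrays) was dwarf rats heterozygous for an antisense growth hormone (GH) transgene and fed freely. All 3 groups received food 30 minutes before lights off and were killed the next morning after lights on. The genotype field reads (-/-) on all 12 arrays, the Tg arrays included, so the Tg group rests on titles and source names. The transgene's promoter was not given in the sources used here. Arrays are labelled as biological replicates, and nothing more is said of how animals map to arrays. The description code of the arrays is shared within each group, so a batch marked by it and the group cannot be told apart.

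Adipocytes are wrapped in a basement membrane of type IV collagen and laminins and lie in a stroma of fibrillar collagens, type VI collagen and fibronectin, much of it made by fibroblasts. Lysyl oxidases cross-link collagen and elastin, small proteoglycans such as decorin and lumican bind the fibrils, and metalloproteinases and Adamts enzymes cut the matrix under the control of Timps. The matrix of fat is known to be remodelled as adipocytes enlarge or shrink.

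The mean log2 intensity of 10 adipocyte markers was 13.27 to 13.93 over the 12 arrays, so the labelled tissue's markers were present on each. Several arrays carried transcripts of other tissues, whose source was not tested. The duct epithelium score (10 genes) was 10.04 on AL3, 10.52 on CR2, 10.67 on CR4, 10.51 on Tg2, 10.66 on Tg4 and 8.67 on Tg3, and 7.38 to 7.87 on the other 6. The caput epididymis score reached 13.44 on CR4 and the exocrine pancreas score 12.68 on Tg1. The spermatid score was 10.60 to 12.77 on AL1, AL2, CR1 and Tg2 and 6.60 to 8.13 elsewhere. CR3 had the highest background (58.5 scanner units, against 34.5 to 44.1) and the most blank probes (5.71%). In whole tissue, fewer cells of a type and less RNA per cell cannot be told apart.

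Under caloric restriction the matrix genes lay lower on balance than in freely fed rats, by small amounts, and no single member passed the test. Of the 77 tested, 56 had a lower mean in CR than in AL and 21 a higher one, against 52.5% lower over all 12111 named genes tested. The median difference was -0.16 (log2 scale), against -0.01 over all named genes. By limma with Benjamini-Hochberg adjustment over 23281 probe sets, 0 of 77 members had an adjusted p under 0.05, where 1.73% of all named genes (1.06% lower in CR) and 1.45% of all probe sets did. At an unadjusted p under 0.05 there were 17 lower (all named genes, 11.3%) and 1 higher, where 18.3% of all named genes lay in either direction. On 11 of the 77 every CR array lay below every AL array (all named genes, 6.74%), and on 0 of the 77 above (4.45%). The median standard error (SE) of a difference was 0.15.

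**Figure D1:**
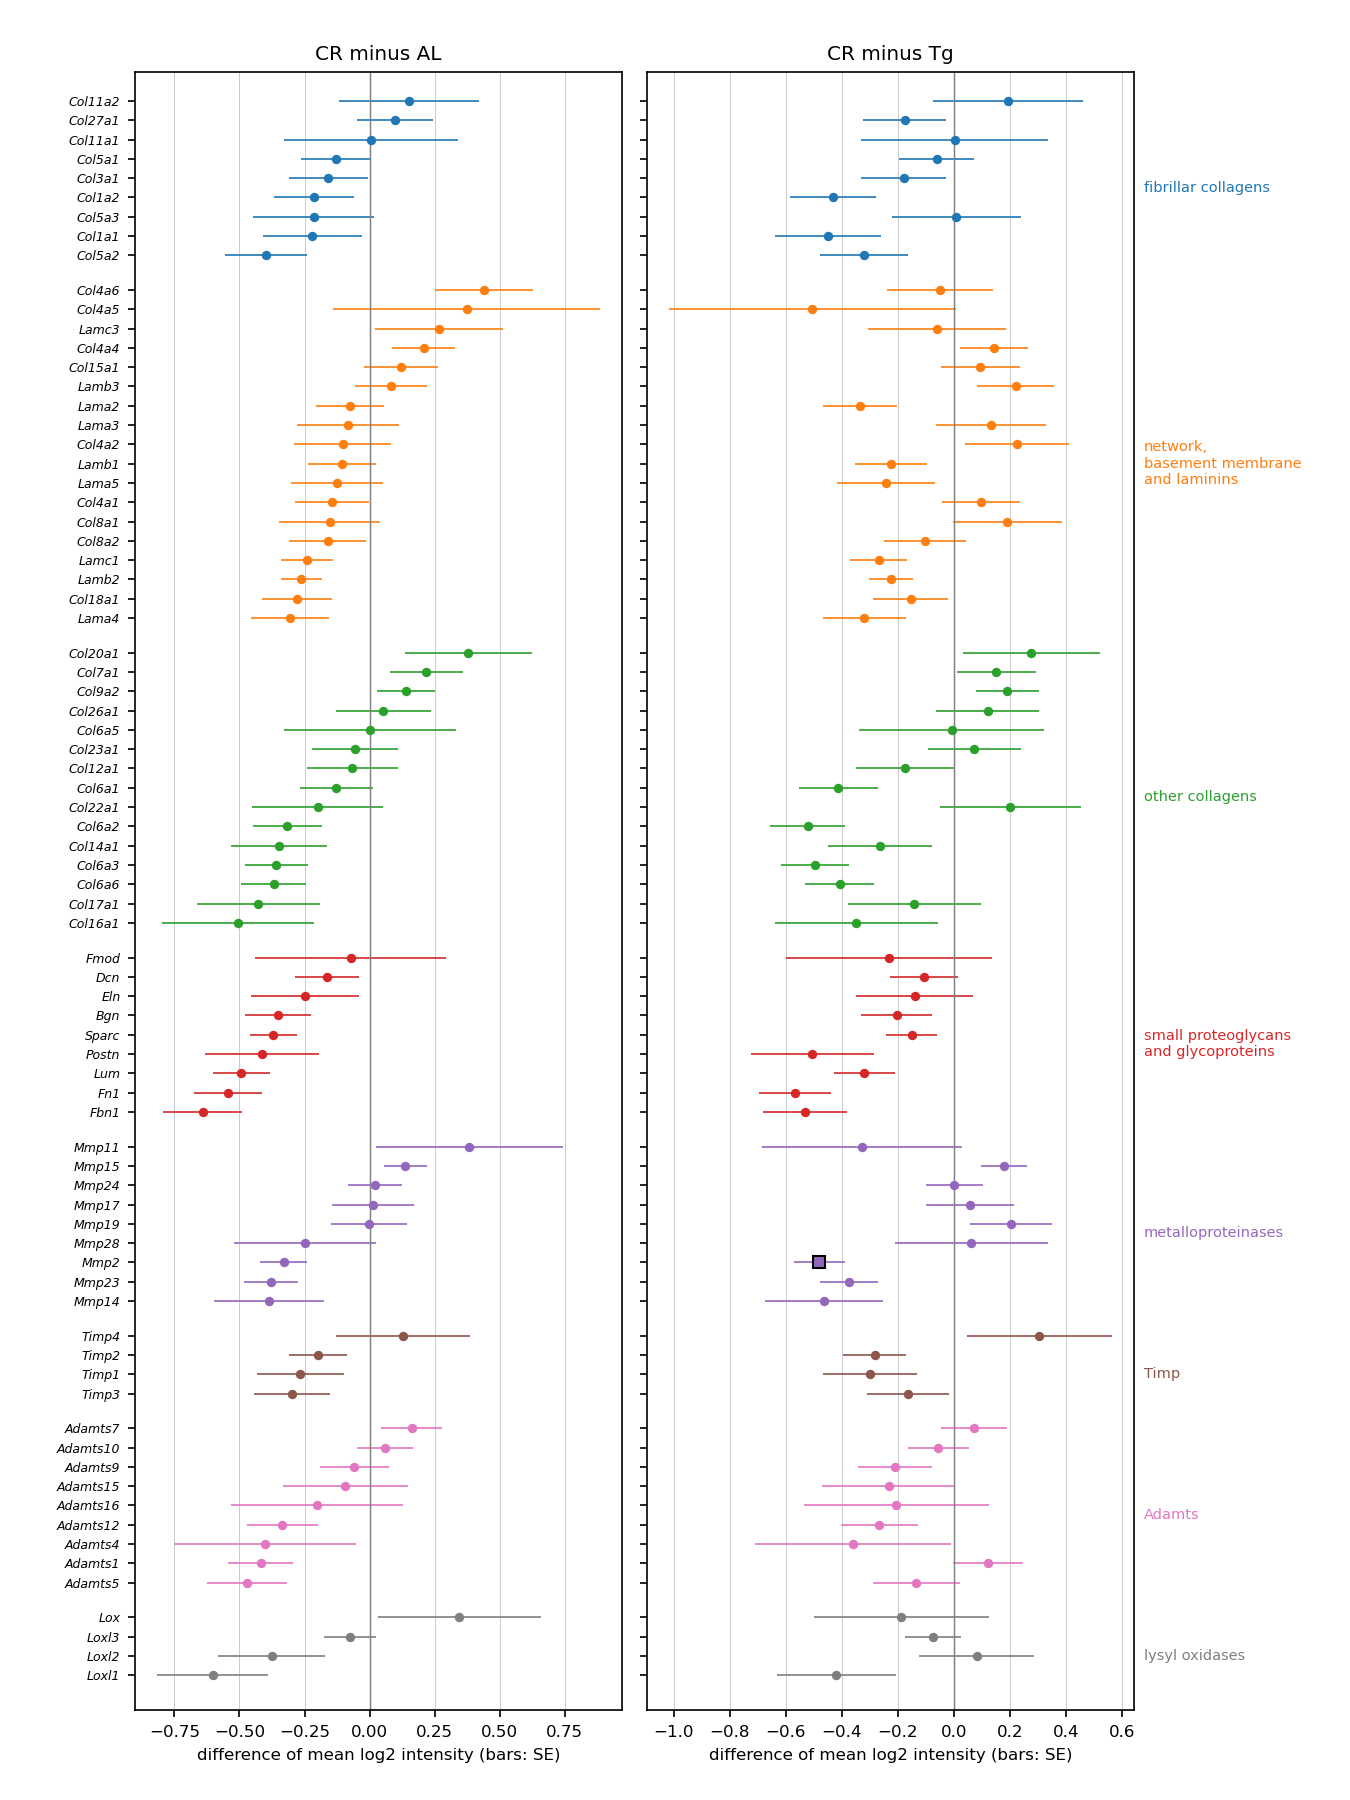
Difference of mean log2 intensity, CR minus AL (left) and CR minus Tg (right), for the 77 members tested, 1 per row and coloured by role; points are differences and bars the SE of the fit (4 arrays a group). All 9 small proteoglycans and glycoproteins lie left of 0 in both panels, and the square marks Mmp2, the 1 member with an adjusted p under 0.05.

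The small proteoglycans and glycoproteins held the members with the smallest p. All 9 had lower means in CR than in AL, with differences from -0.64 to -0.07 and a median of -0.37. Fibronectin (Fn1), the adhesive glycoprotein that integrins bind, was at 13.02, 13.54, 13.32 and 13.56 in AL, 12.90, 12.77, 12.86 and 12.73 in CR, and 13.14, 13.42, 13.63 and 13.35 in Tg. All 4 CR arrays lay below all AL and all Tg arrays. The CR minus AL difference was -0.54 ± 0.13 (SE), with an adjusted p of 0.0621 by limma. On AL4, 1 of its 11 probes was above saturation.

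Fibrillin 1 (Fbn1), the backbone of microfibrils, was at 13.31, 12.95, 13.14 and 13.23 in AL, 12.73, 12.29, 12.67 and 12.37 in CR, and 12.69, 13.29, 13.28 and 12.93 in Tg. CR lay below AL on every array, while Tg1 fell inside the CR range. The difference of -0.64 ± 0.15 had an adjusted p of 0.0601 by limma, and a dimmer second probe set of Fbn1 gave -0.60. Lumican (Lum), a small leucine-rich proteoglycan that spaces collagen fibrils, was at 12.19, 12.18, 12.36 and 12.39 in AL, 11.97, 11.58, 11.86 and 11.74 in CR, and 12.12, 12.16, 12.31 and 11.85 in Tg. The CR arrays lay below the AL arrays, and Tg4 overlapped CR. Its difference of -0.49 ± 0.11 had the smallest adjusted p of the members in this comparison, 0.0527 by limma.

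Sparc, a collagen-binding matricellular protein, was at 14.60, 14.75, 14.62 and 14.74 in AL, 14.27, 14.21, 14.50 and 14.25 in CR, and 14.41, 14.49, 14.60 and 14.33 in Tg. CR lay below AL on every array, by 0.37 ± 0.09 on average (adjusted p = 0.0656, limma), and Tg lay between with overlaps on both sides. On AL4, 7 of its 11 probes exceeded the saturation level in the deposited parameters, and 1 or more did so on 7 arrays, where the level is understated. A second Sparc probe set gave -0.50 for CR minus AL and -0.39 for CR minus Tg, against -0.15 on the brightest for the latter. Biglycan (Bgn) was at -0.35 (adjusted p = 0.194), periostin (Postn) at -0.41 (0.374), elastin (Eln) at -0.25 (0.579), decorin (Dcn) at -0.16 (0.533) and fibromodulin (Fmod) at -0.07 (0.934), all CR minus AL by limma with overlapping arrays.

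**Figure D2:**
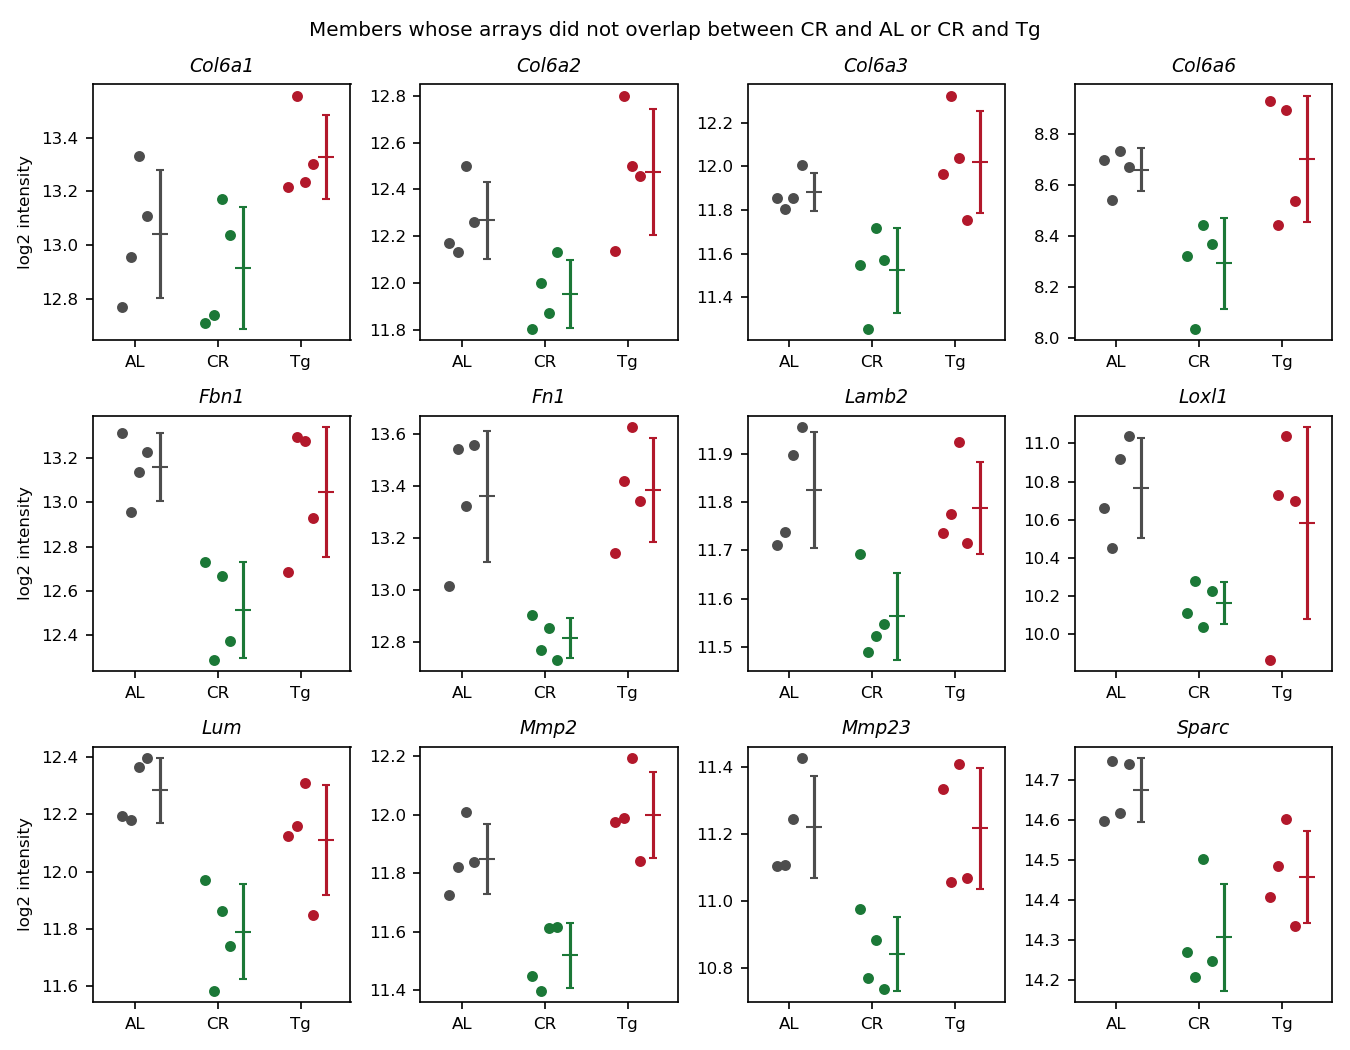
Log2 intensity of the 12 members whose 4 CR arrays lay entirely below the 4 AL or the 4 Tg arrays; each point is 1 array, in the order of its number, and the bar beside it the mean ± SD. The y axes differ between panels and do not start at 0. Mmp2 and Fn1 have all CR points below all others, and Loxl1 has 1 Tg point below its CR points.

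Of the fibrillar collagens, 6 of 9 tested had a lower mean in CR than in AL, with 0 called and a median of -0.16. The chains of type I collagen, the main fibril former, were at -0.22 ± 0.19 for Col1a1 and -0.21 ± 0.15 for Col1a2. Col3a1, its partner in soft tissue, was at -0.16 ± 0.15, Col5a1 at -0.13 ± 0.13 and Col5a2, which helps to nucleate fibrils, at -0.40 ± 0.16 (adjusted p = 0.234, limma). Col3a1 had saturated probes on 10 arrays. None of these had non-overlapping arrays.

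Type VI collagen forms beaded filaments around adipocytes. Col6a3 was at 11.86, 11.80, 11.85 and 12.01 in AL, 11.55, 11.25, 11.72 and 11.57 in CR, and 11.97, 12.32, 12.04 and 11.75 in Tg. Every CR array lay below every AL and every Tg array. Col6a2 was at 12.17, 12.13, 12.50 and 12.26 in AL, 11.80, 11.999, 11.87 and 12.13 in CR, and 12.14, 12.80, 12.50 and 12.46 in Tg. CR lay below both other groups here too, narrowly at 12.13. Against AL the differences were -0.36 ± 0.12 for Col6a3, -0.32 ± 0.13 for Col6a2, -0.37 ± 0.12 for Col6a6 and -0.13 ± 0.14 for Col6a1, with adjusted p by limma of 0.179, 0.262, 0.174 and 0.671. Col6a5 did not differ, at -6.04e-05 ± 0.33 with overlapping arrays. Dimmer second probe sets gave -0.12 for Col6a3 and -0.27 for Col6a2.

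In the network, basement membrane and laminin group, 12 of 18 had a lower mean in CR than in AL, with 0 called and a median of -0.10. The laminin beta 2 chain Lamb2 was at 11.71, 11.74, 11.90 and 11.96 in AL, 11.69, 11.49, 11.52 and 11.55 in CR, and 11.74, 11.77, 11.92 and 11.71 in Tg, with CR below both other groups. Its difference from AL was -0.26 ± 0.08 (adjusted p = 0.121, limma). Lamc1 was at -0.24, Lama4 at -0.31, Col18a1, the source of endostatin, at -0.28, Lamb1 at -0.11, Lama2 at -0.08 and Col15a1 at 0.12, all with overlapping arrays.

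Col4a1 and Col4a2, the chains of the main type IV collagen, lie head to head on chromosome 16. Their RefSeq start regions (assembly GRCr8, chr16:84885521-84885596, + strand) share 76 bases with 78.9% G and C, shown because both genes start from it, with the GC box (GGGCGG on either strand) in capitals.
Col4a1 and Col4a2: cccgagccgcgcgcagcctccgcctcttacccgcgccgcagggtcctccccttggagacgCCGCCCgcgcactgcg
Col4a1 was at 13.44, 13.70, 13.30 and 13.72 in AL, 13.41, 13.07, 13.69 and 13.41 in CR, and 13.37, 13.15, 13.50 and 13.18 in Tg. Col4a2 was at 12.78, 12.76, 12.63 and 12.98 in AL, 12.75, 12.29, 13.31 and 12.39 in CR, and 12.53, 12.33, 12.62 and 12.36 in Tg. For both genes CR2 was the lowest and CR3 the highest CR array, and the groups overlapped except that every Tg array of Col4a2 lay below every AL array. CR minus AL was -0.14 ± 0.14 for Col4a1 and -0.10 ± 0.19 for Col4a2, and without CR2 the latter was 0.03.

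Among the proteases, 5 of 9 metalloproteinases tested and 7 of 9 Adamts genes had a lower mean in CR than in AL, with 0 called. Mmp2, gelatinase A, which cuts denatured and type IV collagen, was at 11.72, 11.82, 12.01 and 11.84 in AL, 11.45, 11.40, 11.61 and 11.62 in CR, and 11.98, 11.99, 12.19 and 11.84 in Tg. All CR arrays lay below all AL and all Tg arrays. Against AL the difference was -0.33 ± 0.09 (adjusted p = 0.0967, limma). Mmp23 was at -0.38 ± 0.10 (0.0937) and also had CR arrays below all others. Its other probe sets gave -0.33 and, at a mean log2 intensity of 8.80, -0.03. Mmp14, the membrane-bound activator of Mmp2, was at -0.39 ± 0.21 (0.388) with overlapping arrays. Of the inhibitors, Timp1 was at -0.27, Timp2 at -0.20, Timp3 at -0.30 and Timp4, which is prominent in fat, at 0.13, none called.

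Adamts1 and Adamts5 cut proteoglycans such as versican and aggrecan and are neighbours on chromosome 11. Adamts1 was at 10.75, 10.47, 10.85 and 10.84 in AL, 10.26, 10.05, 10.40 and 10.52 in CR, and 10.01, 10.05, 10.34 and 10.35 in Tg. The Tg arrays lay below all AL arrays, and CR4 alone of the CR arrays reached into the AL range. Adamts5 was at 12.38, 12.21, 12.12 and 12.42 in AL, 11.92, 11.48, 12.16 and 11.69 in CR, and 12.27, 11.70, 12.01 and 11.81 in Tg, with overlaps. CR minus AL was -0.42 ± 0.12 for Adamts1 (adjusted p = 0.123, limma) and -0.47 ± 0.15 for Adamts5 (0.161). Adamts4 was at -0.40 ± 0.35 and Adamts16 at -0.20 ± 0.33, with the widest spreads of the Adamts genes tested.

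Of the lysyl oxidases, Loxl1, which acts on elastic fibres, was at 10.66, 10.45, 10.92 and 11.04 in AL, 10.11, 10.28, 10.04 and 10.22 in CR, and 9.87, 10.73, 11.04 and 10.70 in Tg. CR lay below AL on every array, and Tg1 lay below all CR arrays. The CR minus AL difference was -0.60 ± 0.21 (adjusted p = 0.189, limma). Loxl2 was at -0.38 ± 0.21 and Lox at 0.35 ± 0.31, and dimmer second probe sets gave -0.10 for Loxl2 and 0.31 for Lox.

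Markers of some cell types were lower in CR beside these differences, and those of others were not. The fibroblast score (10 of 11 listed genes on the array) was 10.76 to 11.11 in AL, 10.65 to 10.75 in CR and 10.79 to 11.14 in Tg, and 9 of its 10 genes had a lower mean in CR than in AL, 0 called. The macrophage score (11 of 12) was 10.52 to 10.77 in AL, 10.10 to 10.24 in CR and 10.45 to 10.69 in Tg, with 10 of 11 genes lower in CR than in AL and 6 called. For both lists every CR array lay below every AL and Tg array. On the fibroblast score the margin was very narrow, with CR2 at 10.7546 and AL1 at 10.7562. The endothelial score (9 of 10) was 10.49 to 10.82 in AL, 10.23 to 10.76 in CR and 10.44 to 10.67 in Tg, with overlaps, and 8 of its 9 genes had a lower mean in CR than in AL, 0 called. The median difference from AL was -0.20 over the fibroblast, -0.56 over the macrophage and -0.36 over the endothelial genes. All 10 spermatid genes also had a lower mean in CR than in AL (median -1.67), 0 called. That score overlapped, at 6.78 to 12.77 in AL and 7.04 to 10.60 in CR. The smooth muscle, adipocyte, mesothelium and duct epithelium lists did not go lower in CR against AL. Of the smooth muscle and pericyte genes 0 of 8 had a lower mean (median 0.10), of the adipocyte genes 5 of 10 (0.02). Of the mesothelium genes, which share Krt8, Krt18 and Krt19 with the duct list, 1 of 6 did (0.39). Of the duct epithelium genes 0 of 10 did (0.92). The part of these cell types in the matrix differences was not tested. Leaving out CR3, CR4 and Tg1, the arrays with high background, caput or pancreas transcripts, gave a median of -0.22 over the members for CR minus AL and 0 members called.

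In Tg against AL the matrix genes were spread evenly around 0. Of the 77 members, 39 had a lower and 38 a higher mean in Tg than in AL (all named genes, 52.2% lower), and the median was -0.0018. By limma 0 members were called, as were 0% of all named genes. At an unadjusted p under 0.05 there were 3 lower (all named genes, 3.1%) and 1 higher, where 4.98% of all named genes lay in either direction. On 2 members, Adamts1 and Col4a2, all Tg arrays lay below all AL arrays (2.22%), and on 0 above (1.37%). Because CR and Tg are set against the same AL arrays, their differences are given side by side and not related to each other. Adamts1 was at -0.54 ± 0.12 in Tg against AL (adjusted p = 0.551, limma), and all 11 of its probes were lower in both CR and Tg. Sparc was at -0.22, Loxl2 at -0.46, Adamts5 at -0.34, Col4a1 at -0.24, Col4a2 at -0.33 and Col22a1 at -0.40. Second probe sets gave -0.11 for Sparc, -0.11 for Loxl2, 0.04 for Adamts5 (mean log2 intensity 11.98) and -0.24 for Col4a1. On the higher side stood Col4a5 at 0.88 ± 0.51, Mmp11 at 0.71 ± 0.36 and Lox at 0.53 ± 0.31, all with adjusted p of 0.827 by limma, then Col4a6 at 0.49, Lama2 at 0.26, Col27a1 at 0.27 and Col6a1 at 0.28.

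The bases before the RefSeq starts of Lum, Sparc and Adamts1 are shown because these genes had the smallest p among members with a promoter in the RefSeq table (GRCr8). For Lum and Sparc that p was from CR against AL, and for Adamts1 from Tg against AL. Of 96 members, 69 have 1 or more promoters in that table. Each line gives 250 bases up to the start, 5′ to 3′ on the gene's strand, at chr7:34245456-34245705 (+) for Lum, chr10:40038817-40039066 (-) for Sparc and chr11:38427385-38427634 (-) for Adamts1. Capitals mark matches to the TATA box (TATAAA, gene strand), the CCAAT box (CCAAT), the GC box (GGGCGG) and the AP-1 site (TGANTCA), the last 3 on both strands.
Lum: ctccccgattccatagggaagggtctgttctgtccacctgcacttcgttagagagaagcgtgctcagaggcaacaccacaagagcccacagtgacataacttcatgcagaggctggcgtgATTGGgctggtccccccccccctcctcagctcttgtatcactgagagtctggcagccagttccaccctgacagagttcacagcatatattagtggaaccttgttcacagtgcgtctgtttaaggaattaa
Sparc: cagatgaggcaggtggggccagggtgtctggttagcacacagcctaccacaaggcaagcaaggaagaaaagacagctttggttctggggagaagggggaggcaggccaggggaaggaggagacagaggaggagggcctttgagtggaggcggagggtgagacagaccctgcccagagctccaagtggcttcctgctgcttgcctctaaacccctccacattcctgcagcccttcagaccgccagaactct
Adamts1: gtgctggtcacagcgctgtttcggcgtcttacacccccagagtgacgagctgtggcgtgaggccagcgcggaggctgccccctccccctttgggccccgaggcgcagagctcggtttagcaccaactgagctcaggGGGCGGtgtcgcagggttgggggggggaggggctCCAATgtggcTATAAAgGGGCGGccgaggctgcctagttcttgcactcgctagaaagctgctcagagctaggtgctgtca
Adamts1 holds a TATA box, a CCAAT box and 2 GC boxes, Lum a CCAAT box on the other strand, and Sparc none of the 4 letter strings in this window. Over 33469 RefSeq promoters, 8.06% hold the TATA letters, 34% CCAAT, 30.5% the GC box and 6.34% the AP-1 letters. Over the 72 promoters of members the shares were 15.3%, 29.2%, 50% and 8.33%. A match describes letters and not a bound site.

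CR set against Tg asks how restricted rats differed from freely fed rats with less GH. Of the 77 members, 52 had a lower and 25 a higher mean in CR than in Tg (all named genes, 55.1% lower), with a median of -0.16 against -0.02 over all named genes. By limma 1 member was called, Mmp2, where 1.41% of all named genes (0.586% lower in CR) and 1.25% of all probe sets were. At an unadjusted p under 0.05 there were 17 lower (9.62%) and 0 higher, where 17.1% of all named genes lay in either direction. On 8 members, Col6a1, Col6a2, Col6a3, Col6a6, Fn1, Lamb2, Mmp2 and Mmp23, every CR array lay below every Tg array (6.49%), and on 0 members above (4.87%).

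Mmp2 fell by 0.48 ± 0.09 in CR against Tg, a 1.40-fold lower intensity, with an adjusted p of 0.0323 by limma. All 11 of its probes were lower in CR, but a second, dim Mmp2 probe set (mean log2 intensity 6.75) was at 0.07, and the mean of both probe sets was at -0.21 with an adjusted p of 0.405. With the replicate number as a block the adjusted p was 0.0407 over 12 arrays and 0.0695 over the 8 CR and Tg arrays. It was lost, with differences of -0.51 to -0.42, without AL1 (adjusted p = 0.0512), AL4 (0.0557), CR1 (0.0938), CR2 (0.0774), CR3 (0.0612), Tg1 (0.0725), Tg2 (0.0835) or Tg3 (0.0935), each left out alone in limma.

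Type VI collagen chains other than Col6a5 stood next to it without passing. Against Tg, Col6a2 was at -0.52 ± 0.13, Col6a3 at -0.50 ± 0.12, Col6a6 at -0.41 ± 0.12 and Col6a1 at -0.41 ± 0.14, with adjusted p by limma of 0.088, 0.0794, 0.135 and 0.169. Col6a5 was at -0.0083 ± 0.33 (0.995). Dimmer second probe sets gave -0.46 for Col6a2 and -0.28 for Col6a3. Fn1 was at -0.57 ± 0.13 (0.0617), Fbn1 at -0.53 ± 0.15 (0.113), Mmp23 at -0.37 ± 0.10 (0.107) and Lum at -0.32 ± 0.11 (0.173). Col1a1 was at -0.45, Col1a2 at -0.43, Postn at -0.51, Mmp14 at -0.46, Timp2 at -0.28, Lama2 at -0.34, Lamb2 at -0.22 and Lamc1 at -0.27, none called. All 9 small proteoglycans and glycoproteins had lower means in CR than in Tg, with a median of -0.23.

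Some members varied far more between arrays of a group than between groups. Col4a5, a chain of a specialised type IV collagen network, was at 9.44, 9.45, 11.30 and 9.65 in AL, 9.82, 11.05, 9.55 and 10.92 in CR, and 9.88, 11.52, 10.53 and 11.44 in Tg. The high arrays were AL3, CR2, CR4, Tg2 and Tg4, with Tg3 between, and these are the arrays with a high duct epithelium score. Col13a1, a transmembrane collagen named here after its values were seen, was dim by its mean, at 7.69 on AL3, 8.27 on CR2, 7.95 on CR4, 8.12 on Tg2, 8.60 on Tg4 and 6.34 on Tg3, and 4.74 to 5.68 on the other 6.

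Lox, the founding lysyl oxidase, was at 9.34, 8.95, 10.24 and 9.41 in AL, 9.60, 10.17, 9.40 and 10.13 in CR, and 9.39, 10.31, 9.78 and 10.59 in Tg, and Mmp11, stromelysin 3, was at 6.74, 6.45, 7.63 and 6.83 in AL, 6.74, 8.05, 6.53 and 7.86 in CR, and 7.27, 7.87, 7.43 and 7.93 in Tg. Both were highest within each group on the same arrays as Col4a5. None of the 4 genes had groups that did not overlap. With the spermatid and duct scores as covariates, the CR minus AL difference of Col4a5 went from 0.37 to -0.15 and that of Mmp11 from 0.38 to -0.02.

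**Figure D3:**
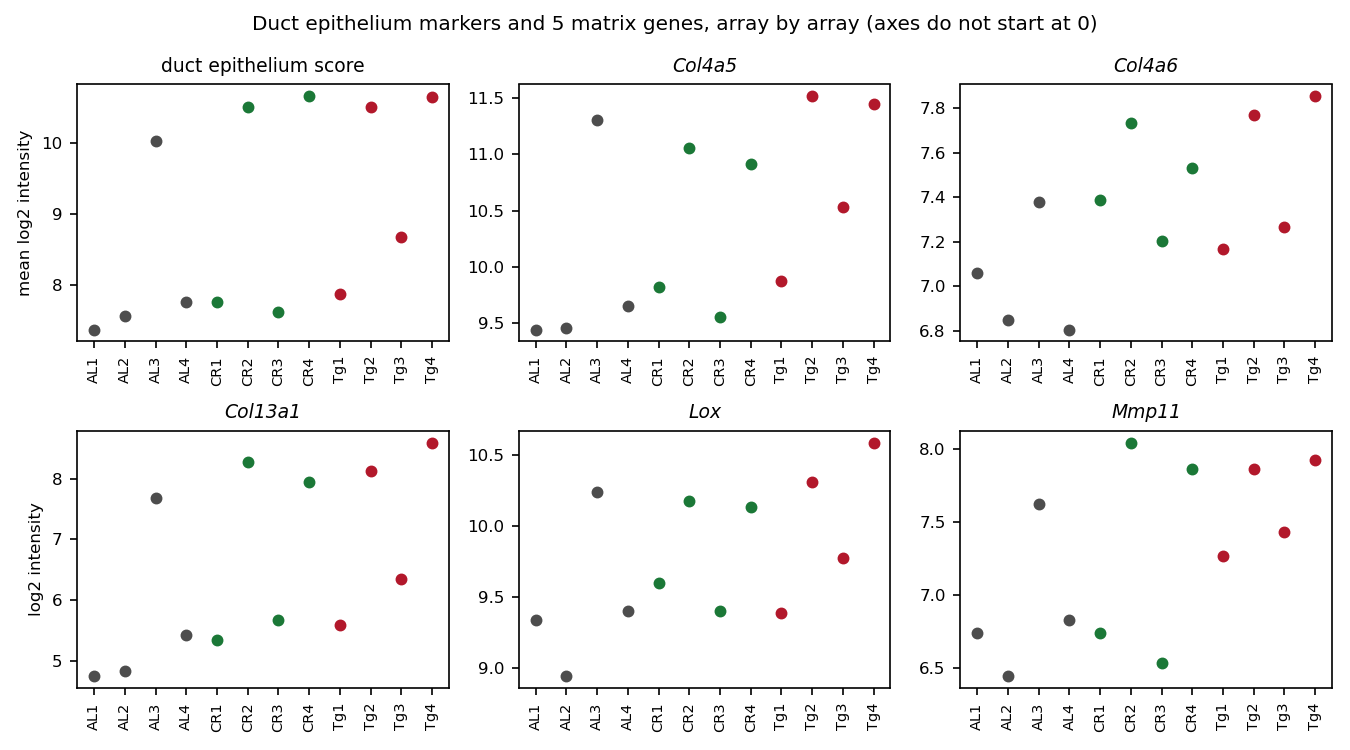
Duct epithelium score (mean log2 intensity of 10 marker genes) and log2 intensity of 5 matrix genes on each of the 12 arrays; grey AL, green CR, red Tg. AL3, CR2, CR4, Tg2 and Tg4 are the high arrays for the score and for Col4a5, Col13a1 and Lox, with Tg3 between for Col4a5 and Col13a1.

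Col4a5 and its neighbour Col4a6 lie head to head on the X chromosome, with RefSeq starts 1414 bases apart. Col4a6 was at 7.06, 6.85, 7.38 and 6.81 in AL, 7.39, 7.73, 7.20 and 7.53 in CR, and 7.17, 7.77, 7.27 and 7.85 in Tg, so that AL3, CR2, CR4, Tg2 and Tg4 were again the highest of their groups. The 250 bases before each start are shown because this pair moved together by array, at chrX:109907109-109907358 (+) for Col4a5 and chrX:109905945-109906194 (-) for Col4a6 (GRCr8), with GC boxes in capitals.
Col4a5: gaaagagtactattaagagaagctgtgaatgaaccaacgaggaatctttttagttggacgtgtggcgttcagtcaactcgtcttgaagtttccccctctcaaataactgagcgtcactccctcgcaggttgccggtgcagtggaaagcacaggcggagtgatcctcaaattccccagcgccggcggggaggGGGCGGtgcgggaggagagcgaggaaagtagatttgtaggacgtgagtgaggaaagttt
Col4a6: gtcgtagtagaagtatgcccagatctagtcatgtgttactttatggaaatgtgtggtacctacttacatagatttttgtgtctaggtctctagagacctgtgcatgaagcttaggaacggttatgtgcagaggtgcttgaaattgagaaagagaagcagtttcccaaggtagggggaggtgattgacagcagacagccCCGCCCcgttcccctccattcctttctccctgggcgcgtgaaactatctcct
Each window holds 1 GC box, and no match to the other 3 letter strings.

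The 19 members below the filter include Mmp3, Mmp7, Mmp8, Mmp9, Mmp10, Mmp13 and Mmp16, and Col2a1, Col9a1 and Col10a1 of cartilage. Mmp9, gelatinase B, was between 5.65 and 6.64 on the 12 arrays, with overlapping groups. Mmp3, stromelysin 1, was at 4.74, 5.10, 5.34 and 5.70 in AL, 5.96, 5.72, 6.49 and 6.02 in CR, and 5.12, 5.10, 5.31 and 5.33 in Tg. Its CR arrays lay above all others, narrowly so for AL4 and CR2, but 5 of its 11 probes were lower in CR than in AL. On Adamts6 and Adamts8, 2 further dim members named after their values were seen, every CR array lay above every AL array too, at 6.55 to 7.23 against 5.78 to 6.52 and at 6.38 to 6.85 against 6.13 to 6.25, with Tg overlapping CR on both. The margin on Adamts6 was narrow. How often dim genes over the whole array separated in this way was not counted, so no result is read from these dim members. With no filter on dim probe sets, 0 members were called in CR against AL by limma.

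Second probe sets gave a check within genes. For 28 genes 32 further probe sets were tested, and their difference had the sign of the brightest probe set in 25 of 32 for CR minus AL, 25 for Tg minus AL and 24 for CR minus Tg, with 0 called. The largest gap for CR minus AL was 0.41, on Mmp2, and Col15a1 turned from 0.12 to -0.13. For CR minus Tg it was 0.57, on Col4a6, and 1 of the 2 other probe sets of Mmp23 was at 0.15, while Adamts5 was at -0.59 against -0.13.

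**Figure D4:**
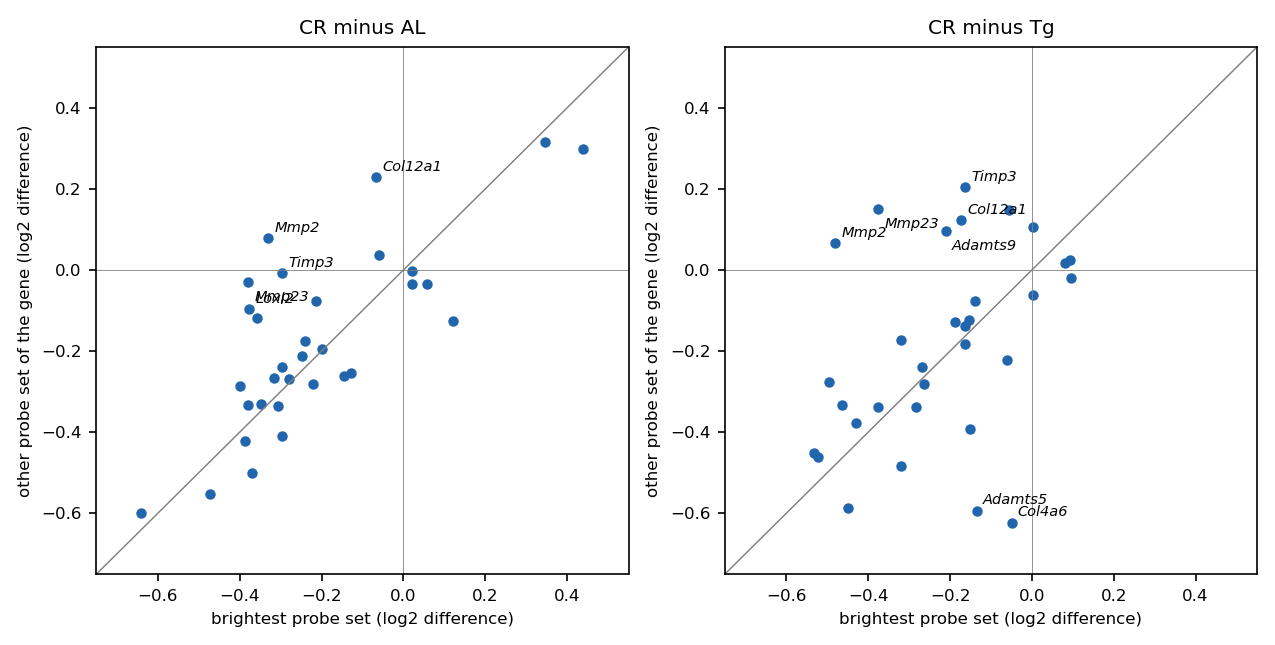
Log2 difference of the brightest probe set of a gene (x) against that of its other tested probe sets (y), for CR minus AL (left) and CR minus Tg (right); 32 points from 28 genes, the diagonal marks equality, and genes with a gap over 0.25 are named. Mmp2 is the point farthest from the diagonal on the left, and Col4a6 on the right.

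Other genes of matrix assembly were counted from lists. None of the 21 collagen processing genes tested, which hydroxylate, fold and trim procollagen, was called in any comparison, nor were any of the 18 receptors such as integrins or the 19 genes of the plasminogen and other protease list. At an unadjusted p under 0.05, CR against AL gave 3 of 21, 7 of 18 and 6 of 19 lower and 0 higher in these lists. Of all named genes 11.3% were lower and 18.3% lay in either direction, so that the first list lies near the share lower. In the TGF-beta list, 1 of 20 was called in CR against AL (all named genes, 1.73%): Tgfb1, the cytokine that induces collagen synthesis, fell by 0.44 (adjusted p = 0.0322, limma). Its arrays were 9.25, 9.37, 9.62 and 9.59 in AL and 9.005, 9.017, 9.007 and 9.039 in CR, with no overlap. The call was lost without AL3 (0.0774), AL4 (0.109), CR1 (0.0762), CR2 (0.0819) or CR3 (0.0725), with the replicate block (0.0538), with the 8 AL and CR arrays alone (0.0878) and without CR3, CR4 and Tg1 together (0.196).

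Among 29 other matrix glycoproteins and proteoglycans tested, 2 were called lower and 0 higher in CR against AL (all named genes, 1.06% lower), and 3 lower and 0 higher in CR against Tg (0.586% lower). Called or not, 20 of the 29 had a lower mean in CR than in AL and 26 a lower mean than in Tg. Nidogen 1 (Nid1), which links laminin to type IV collagen, was at 12.86, 12.98, 12.93 and 12.93 in AL, 12.45, 12.45, 12.28 and 12.53 in CR, and 13.02, 13.08, 13.05 and 12.88 in Tg. CR lay below both other groups on every array. Nid1 fell by 0.50 against AL (adjusted p = 0.0125, limma). That call was lost without AL4 (0.0524), without CR3, CR4 and Tg1 together (0.0606), and with the mean of its 2 probe sets, which was at -0.28 (0.0512). Against Tg it fell by 0.58 (0.00609), a call lost with the 8 CR and Tg arrays alone, without (0.0565) or with (0.0584) the replicate block.

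Mfap4, a microfibril-associated protein, fell by 0.66 in CR against AL (adjusted p = 0.0438, limma), a call lost without AL1, AL3, AL4 or any 1 CR or Tg array (0.0552 to 0.131) and with the replicate block (0.0732). The Mfap4 call was also lost with no filter (0.0538), with no mean-variance trend (0.0556), with the 8 AL and CR arrays alone (0.102) and without CR3, CR4 and Tg1 together (0.263). Mfap5, another microfibril protein, fell by 0.77 in CR against Tg (0.0344), lost without AL1, AL2, AL4, CR1, CR2, CR4, Tg1, Tg2 or Tg3 (0.0504 to 0.107) and with the block, at 0.0736 over 12 arrays and 0.0639 on CR and Tg alone. Sparcl1, a relative of Sparc, fell by 0.45 in CR against Tg (0.0295), lost without AL1, CR1, CR2, CR3, Tg1, Tg2 or Tg3 (0.0512 to 0.0935) and with the block, at 0.0696 and 0.0639. With the 8 CR and Tg arrays and no block, Mfap5 (0.113) and Sparcl1 (0.0765) were not called. Nor were they without CR3, CR4 and Tg1 together (0.112 and 0.166).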

How the data were processed

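The 12 Affymetrix arrays came as a series matrix of intensity values deposited by the authors, 1 linear value per probe set, and as a score per probe deposited by the authors, the z-score of log10 background-subtracted intensity on each array. A deposited table gives other values, the background, SD and mean of each array. Undoing the z-scores with them gave whole numbers, within 0.01, for 100% of values under 5000. The upstream software was not given in the sources used here; nor was the way probes were summarised.

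The matrix was put on the log2 scale (values under 1 set to 1). limma 3.58.1 in R 4.3.3 (lmFit, eBayes with trend) was fitted with 1 mean per group over 12 arrays, two-sided, on 23281 probe sets above the 25th percentile, leaving out 57 control probe sets; p-values were adjusted by Benjamini-Hochberg, threshold 0.05. The script was tested on simulated data. P-values measure the spread between arrays, whose number limits the precision. Of the probe sets, 20826 had 1 symbol, 436 several and 9780 none, and 20758 matched RefSeq by ID.

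Members and lists were chosen with earlier results of these data known. Named genes were members past the threshold, a fixed list of matrix genes, the 2 with the smallest p in each role in each comparison with AL, the 6 with the largest SD, and called genes of the pathway lists. Same-numbered CR and Tg arrays deviated together (correlations 0.519, 0.320, 0.468 and 0.620), while those with AL ran from -0.494 to 0.492. The labels do not say that the numbers pair arrays. High duct epithelium scores fell on CR2, CR4, Tg2 and Tg4, and why same-numbered arrays deviated together was not tested. The main fit used no pairing, and the replicate block was an alternative. The alternatives changed the summary, normalization, filter, variance model, covariates, block, arrays and probe sets.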

Additional observations from a re-analysis of the deposited data

Results flagged for a closer look

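In each group of 4 arrays, an array was singled out where its gap to the nearest other array took up nearly the whole range of the group. Of 183 groups examined 6 were singled out, and chance alone does so for about 1 in 20. Col4a5 was at 11.3 on AL3, against 9.445 to 9.654 on the other AL arrays, and the duct epithelium score was at 10.04 on the same array, against 7.375 to 7.767. The spermatid score was at 12.16 on Tg2, against 6.599 to 7.426 on the other Tg arrays. The caput epididymis score was at 13.44 on CR4, against 5.922 to 6.883, and the exocrine pancreas score at 12.68 on Tg1, against 6.554 to 6.744. The endothelial score was at 10.49 on AL2, against 10.79 to 10.82.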

How the results depend on the processing

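Of 2088 recomputed gene differences (83 results), 1965 kept their direction and side of the threshold, 39 passed it anew, 65 lost it and 19 changed sign. Members called in CR against AL numbered 3 by median polish of probe z-scores, 4 with quantile normalization, recovered probe intensities or the filter at the 50th percentile, 5 with spermatid and duct covariates, 1 with the replicate block (Adamts1), 1 with the mean of all probe sets (Lum), and 0 to 1 leaving out 1 array (Fn1 without AL1, adjusted p = 0.0430; Lum without Tg4, 0.0460, limma). Lum was called in 7 alternatives and Sparc in 4. In CR against Tg they numbered 2 by median polish, 3 with quantile normalization or recovered intensities, 2 at the 50th percentile, 9 with covariates, 0 with 8 arrays, without CR3, CR4 and Tg1 or with the block on CR and Tg alone (chosen after seeing the data), and 0 to 1 leaving out 1 array (Fn1 in place of Mmp2 without AL1). The median over members was -0.084 (CR against AL) and -0.11 (CR against Tg) with no filter. It was -0.22 for CR against AL without CR3, CR4 and Tg1. Leaving out 1 array gave -0.20 to -0.12, -0.069 to 0.018 for Tg against AL and -0.20 to -0.11 for CR against Tg. Probe sets called over all genes ran from 44 to 1641, 0 to 2 and 20 to 1523 in the 3 comparisons, against 338, 0 and 291.

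All sign changes were in CR against AL, on differences that did not pass. With covariates they were Col4a2 at 0.0024, Col4a5 at -0.15, Fmod at 0.10, Lamb1 at 0.0042, Mmp11 at -0.018, Col22a1 at 0.048 and Col27a1 at -0.026. Leaving out 1 array gave -0.31 to 0.027 for Col4a2 (above 0 without CR2), -0.36 to 0.14 for Fmod (above 0 without CR2 or CR3), -0.042 to 0.28 for Timp4 (below 0 without CR1 or AL3), -0.45 to 0.036 for Adamts16 (above 0 without CR1), -0.33 to 0.052 for Col22a1 (above 0 without AL2), -0.0099 to 0.19 for Col27a1 (below 0 without CR2) and -0.14 to 0.0013 for Lama2 (above 0 without CR3). Fmod was at 0.041 without CR3, CR4 and Tg1, Col15a1 at -0.0026 with the mean of its probe sets, and Adamts16 at 0.020 with recovered intensities. The cause was not tested. Besides Adamts1, the replicate block over 12 arrays changed no member's call; it ended those of Tgfb1 and Mfap4 against AL and of Mfap5 and Sparcl1 against Tg. Saturated probes limit Sparc, Dcn and Col3a1, and 1 probe each of Fn1 and Col4a1 on AL4, and levels near background limit the 19 dim members.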
